A study of Homo sapiens with 19 samples.

Results

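The clustered replication-dependent histone genes were taken by name as the protein-coding genes of GENCODE release 44 on chromosomes 1 and 6 called H1-1 to H1-6, H2AC, H2BC, H3C or H4C with a number. The rule gave 68 genes of 20033 protein-coding genes: 6 for the linker histone H1, 17 for H2A, 18 for H2B, 13 for H3 and 14 for H4. CUT&RUN, in which an antibody guides a nuclease to cut out the chromatin around a histone mark, had been run on MOLM-13, an established human acute myeloid leukaemia cell line. Peak lists of 12 libraries were used. For each of H3K27ac, H3K4me2 and H3K4me3 there were 2 lists after Corin and 2 after DMSO, the solvent control. The labels give 24 h and 0.1 µM for all of these libraries, so the meaning of the dose for DMSO is unclear. Corin is an inhibitor of the CoREST complex that joins an HDAC inhibitor to an LSD1 inhibitor. HDACs remove acetyl groups from histone tails, and LSD1 removes methyl groups from H3K4. The other 7 libraries of the series were not analysed here. No genotype or allele of the line is given beyond its name, and nothing in the labels says that the libraries of a group came from separate cultures.

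Replication-dependent histone genes supply the histones that package newly made DNA, and are transcribed mainly in S phase from a few gene clusters. Their messages carry no poly(A) tail: they end just after a short stem-loop, which the protein SLBP binds. NPAT, a target of cyclin E and CDK2, gathers at the clusters and drives their transcription. H3K4me3 and H3K27ac mark active promoters, and H3K4me2 marks promoters and enhancers more broadly.

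The genes fell into 6 clusters on hg38 when members at most 250 kb apart were joined and 2 kb was added at either end. The largest, chr6:26015032-26287534, held 32 genes, and chr6:27805479-27895891 held 16. The others were chr1:149809879-149889965 with 11 genes, chr6:27130316-27149562 with 5, chr1:228455364-228460558 with 2 (H2AC25 and H2BC26) and chr6:25724063-25729345 with 2 (H2AC1 and H2BC1). All 68 canonical transcripts had 1 exon. The 14 H4 genes encoded 2 different proteins, of which 13 genes shared 1, and the 13 H3 genes encoded 2, of which 10 shared 1. H2A was more varied, with 11 different proteins from 17 genes, as was H2B with 14 from 18, and the 6 H1 genes each encoded a different protein. A 3′ stem-loop matching the histone consensus was found within 100 bp after the stop codon in 68 of 68 members and in 5 of 19965 other protein-coding genes, among them H2AX. The most common forms are shown because they are what these genes have in common that the rule by name did not use: the first below was in 40 members (H2AC17 at chr6:27892704-27892719, minus strand), the second in 9 members that were all H4 genes (H4C8 at chr6:26285131-26285146, minus strand) and the third in 9 members (H1-1 at chr6:26017037-26017052, minus strand). All 16 bases are in capitals as the matched element.
H2AC17 stem-loop: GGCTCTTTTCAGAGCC
H4C8 stem-loop: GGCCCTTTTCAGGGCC
H1-1 stem-loop: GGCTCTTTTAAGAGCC

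Many H2A and H2B genes stand back to back: 13 pairs of members pointed away from each other with 193 to 978 bp between their start sites. The widest pair, with 978 bp, was H3C7 and H2BC9. Each of the others joined an H2A and an H2B gene, with 193 to 250 bp between the starts. The intervals between the starts of 4 such pairs are printed from hg38, plus strand, because they stand for the range of marking described below. H2AC17 and H2BC17 (chr6:27893186-27893424) carried all 3 marks in all lists, and H2BC8 and H2AC8 (chr6:26216689-26216920) had the largest H3K27ac difference. H2AC25 and H2BC26 (chr1:228457874-228458102) had H3K27ac in the Corin lists only, and H2AC1 and H2BC1 (chr6:25726563-25726776), genes known from the testis, had no peak in any list. Capitals mark TATAAA (the TATA box), CCAAT (the site of NF-Y) and ATTTGCAT (the octamer bound by POU2F1), read on both strands, with overlapping matches run together.
H2AC17/H2BC17: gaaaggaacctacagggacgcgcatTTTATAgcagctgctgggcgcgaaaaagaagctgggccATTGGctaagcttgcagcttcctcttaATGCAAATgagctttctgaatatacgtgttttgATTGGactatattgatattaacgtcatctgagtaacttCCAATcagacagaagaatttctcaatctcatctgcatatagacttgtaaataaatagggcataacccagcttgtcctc
H2BC8/H2AC8: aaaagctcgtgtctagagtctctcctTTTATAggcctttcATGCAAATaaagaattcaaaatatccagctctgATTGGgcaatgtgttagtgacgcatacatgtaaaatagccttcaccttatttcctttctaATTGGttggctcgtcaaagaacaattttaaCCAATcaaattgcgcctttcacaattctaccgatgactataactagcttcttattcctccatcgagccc
H2AC25/H2BC26: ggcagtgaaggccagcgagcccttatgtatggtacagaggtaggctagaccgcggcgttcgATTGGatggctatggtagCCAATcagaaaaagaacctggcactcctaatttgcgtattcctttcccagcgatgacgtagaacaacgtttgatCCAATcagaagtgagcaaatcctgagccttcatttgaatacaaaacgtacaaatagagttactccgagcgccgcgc
H2AC1/H2BC1: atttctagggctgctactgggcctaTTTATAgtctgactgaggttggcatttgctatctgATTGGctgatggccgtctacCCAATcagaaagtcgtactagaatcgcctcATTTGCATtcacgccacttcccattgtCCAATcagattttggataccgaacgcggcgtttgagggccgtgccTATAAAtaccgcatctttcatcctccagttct

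The 12 H4 promoters matched below differed from the others in part. CCAAT stood in 3 of them and ATTTGCAT in none, but TATAAA stood in 6. Shown are the 250 bases before the starts of H4C5 (chr6:26204360-26204609, plus strand) and H4C8 (chr6:26285535-26285784, minus strand), from RefSeq on GRCh38.p14, because these genes had more H3K27ac and less H3K4me2 in the Corin lists. Neither holds any of the 3 motifs, so no base is in capitals.
H4C5: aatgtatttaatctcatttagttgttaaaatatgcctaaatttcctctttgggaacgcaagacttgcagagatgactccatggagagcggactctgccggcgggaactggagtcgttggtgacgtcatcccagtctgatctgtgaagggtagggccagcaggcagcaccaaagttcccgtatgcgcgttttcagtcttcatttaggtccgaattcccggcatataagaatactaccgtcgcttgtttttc
H4C8: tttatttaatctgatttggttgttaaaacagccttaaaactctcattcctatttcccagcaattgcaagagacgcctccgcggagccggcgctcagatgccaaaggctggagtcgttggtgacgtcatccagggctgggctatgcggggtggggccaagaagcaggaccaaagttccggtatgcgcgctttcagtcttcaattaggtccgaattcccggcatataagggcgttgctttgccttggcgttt

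RefSeq promoters were matched for 63 of 68 members, and 61 of them began within 50 bp of the GENCODE start used here. Among those 61, TATAAA stood in the 250 bases upstream of 40 (65.6%), against 9.24% of 15842 protein-coding promoters. In 34 the box began 27 to 32 bp before the start. CCAAT was found in 52 (85.2%, against 34.5%): in all 6 H1, 16 H2A, 18 H2B and 9 H3 promoters and in 3 of 12 H4 promoters. ATTTGCAT was found in 25 (41.0%, against 1.65%), which were 11 of 16 H2A and 14 of 18 H2B promoters, and in none of the 27 others. A match describes the letters and does not show that a factor was bound.

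Peak calls depend on how well reads can be placed, and 4 members, H3C14, H3C15, H4C14 and H4C15, sit in a duplicated stretch of chromosome 1 where no 150-base window (the read length) within 2 kb of the start was unique in hg38. For H2AC18 and H2AC19 of the same cluster 32.2% of such windows were unique. Of the other members, H3C13 and H2BC18 had 78.0% and 78.1%, and the rest had more than 93%. The marks of the duplicated copies cannot be told apart from those of their twins in these lists.

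The value for each gene and list was the number of bp under peaks within 2 kb either side of its start site, 4001 bp in all. In the DMSO lists 43 of 68 members had peaks of all 3 marks in both libraries. H2AC18, H2AC25, H2BC26 and H4C8 had H3K4me2 and H3K4me3 in both without H3K27ac in both. H4C3, H2AC14 and H2BC14 had H3K27ac and H3K4me2 without H3K4me3. H1-1 and H3C6 had H3K4me2 alone. The remaining 16 had no mark in both DMSO lists. Peaks were more frequent than over all protein-coding genes for each mark: 45 of 68 members (66.2%) had H3K27ac in all 4 lists, against 27.0% of genes. For H3K4me2 it was 52 of 68 (76.5%, against 60.5%) and for H3K4me3 44 of 68 (64.7%, against 48.8%). These shares are a description, since neighbours share windows and peaks: the 68 windows merged into 39 regions.

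**Figure D1:**
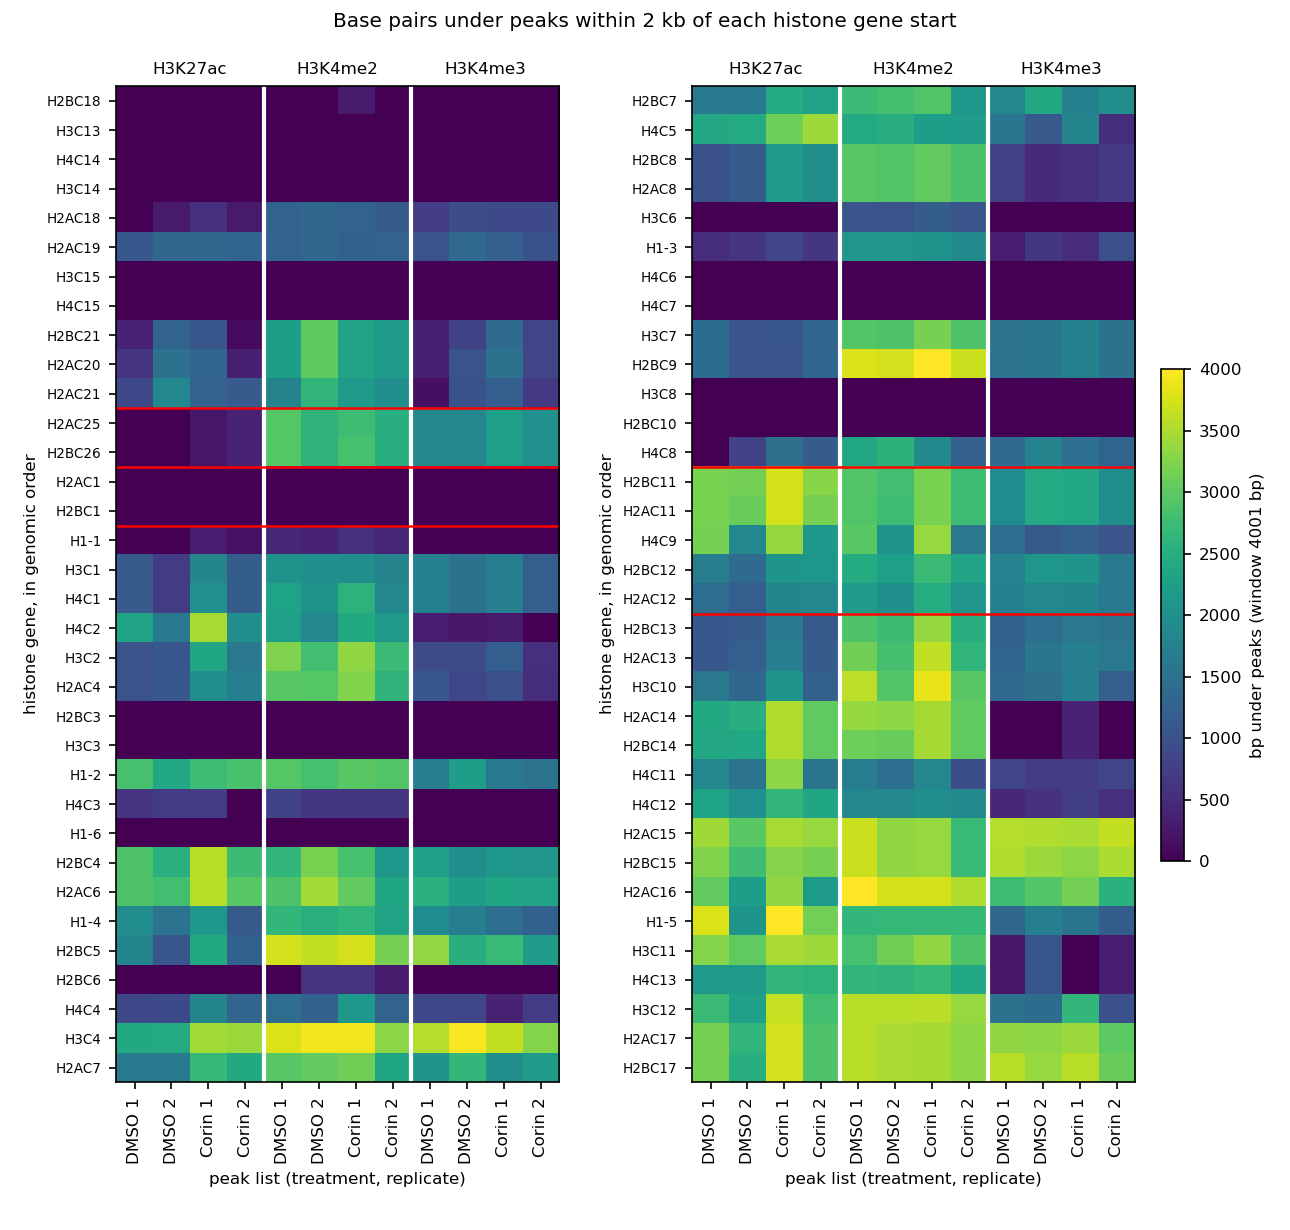
Base pairs under peaks within 2 kb of the start of each of the 68 histone genes (rows, in genomic order; red lines part the 6 clusters) in each of the 12 lists (columns). The 14 dark rows through all lists are the genes with no peak, and the H3K27ac columns are brighter for Corin than for DMSO at 26 genes.

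A group of 14 members had no peak of any mark in any list: H3C13, H3C14, H3C15, H4C14, H4C15, H2AC1, H2BC1, H2BC3, H3C3, H1-6, H4C6, H4C7, H3C8 and H2BC10. H1-6, H2AC1 and H2BC1 are known as genes of male germ cells. Except for the 4 wholly duplicated genes and H3C13, these had windows that were more than 93% unique. H2AC1 and H2BC1 make up a cluster of their own, whereas H2BC3 and H3C3 lie in the largest cluster between H2AC4 and H1-2, both with peaks of all marks in all lists. Their promoters held TATAAA in 7 of 14 and CCAAT in 11 of 14, against 33 and 41 of the 47 matched promoters of members with a peak. H2BC18 had a single peak, 288 bp of H3K4me2 in Corin list 1.

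**Figure D2:**
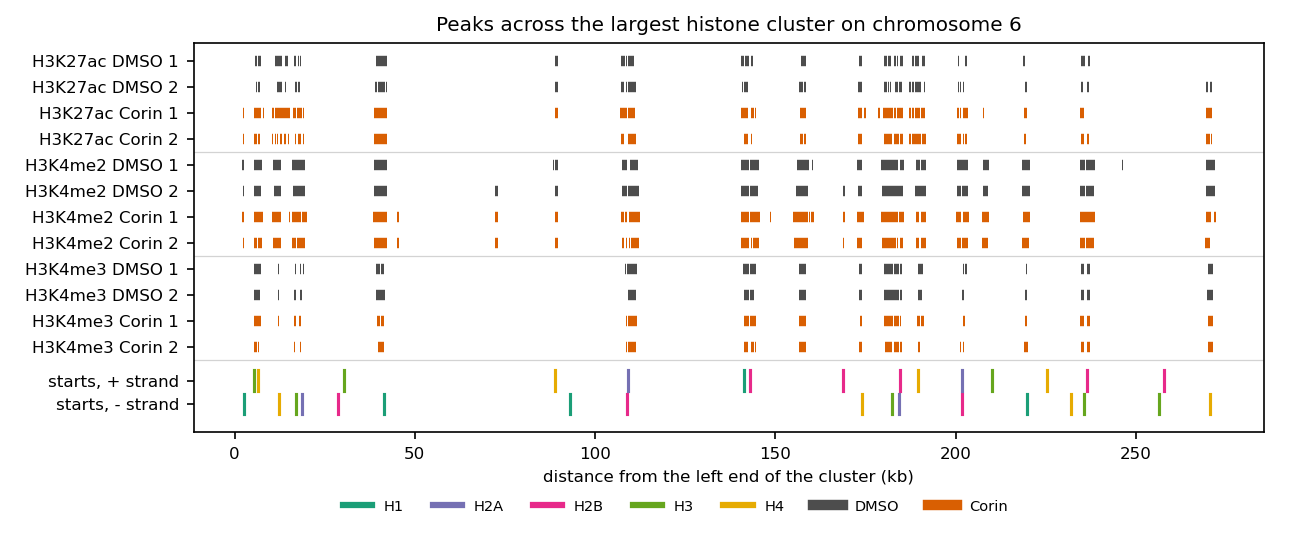
Peaks of the 12 lists (horizontal bars, grey for DMSO and orange for Corin) along the 32-gene cluster of chromosome 6, by distance in kb from its left end, with the start sites of the histone genes on each strand coloured by family below. Most bars recur at the same places across the lists of a mark. A start without a bar directly above it can still have a peak within 2 kb, as at H1-1 and H3C6.

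Around the start sites, peaks at the histone genes lay more often on either side of the start than over it. In DMSO lists 1 and 2, H3K27ac peaks covered the start base of 20.6% and 19.1% of the members, and 51.5% and 52.9% of them 400 and 300 bp into the gene, the highest point. In Corin lists 1 and 2 the H3K27ac shares were 35.3% and 13.2% at the start and 64.7% and 57.4% at the highest point. Over all protein-coding genes the DMSO shares were 12.3% and 17.9% at the start and 18.2% and 24.4% at the highest point. H3K4me3 covered the start of 22.1% to 25.0% of the members over the 4 lists and 54.4% to 61.8% at the highest point, while all genes had 37.0% to 41.1% and 46.5% to 48.0%. The start base lay under H3K4me3 in all 4 lists for 10 of the 44 members with H3K4me3 in all 4, and for 6250 of 9776 genes. For H3K27ac it was 5 of 45 members and 1553 of 5412 genes, and for H3K4me2 15 of 52 members and 4481 of 12129 genes. Of the back-to-back pairs printed above, the start of H2AC8 lay under a peak of H3K27ac, H3K4me2 or H3K4me3 in 0 lists, while that of H2AC25 lay under H3K4me3 in 4 of 4 lists.

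**Figure D3:**
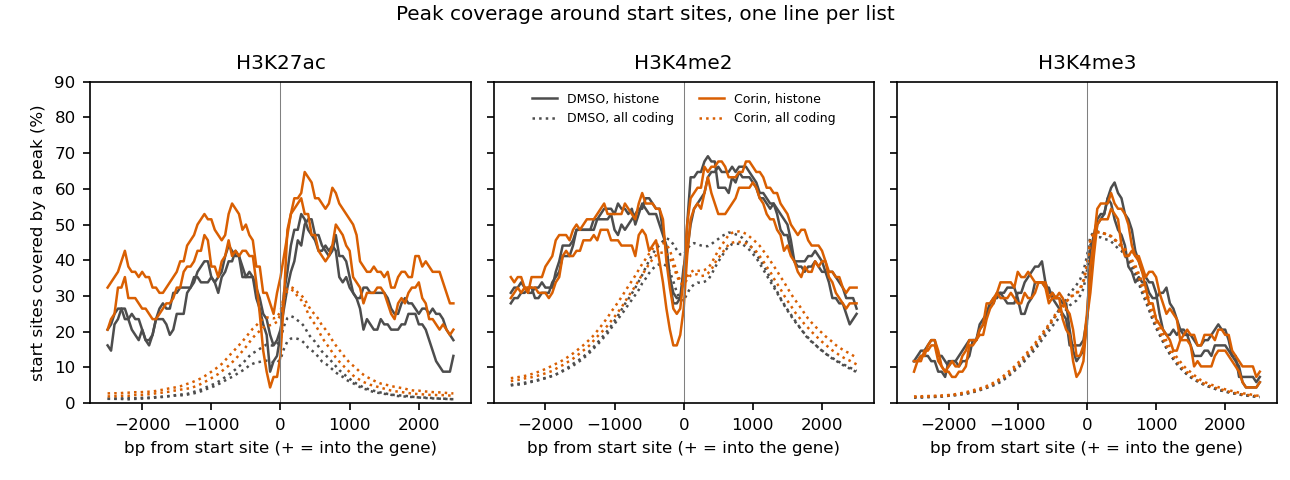
Percent of start sites covered by a peak against the distance from the start (bp, positive into the gene), with a line per list: solid for the 68 histone genes, dotted for all protein-coding genes, grey for DMSO and orange for Corin. The solid lines dip close to the start in every panel, with 13.2% to 35.3% covered by H3K27ac at the start base, and peak 300 to 500 bp into the gene.

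The marks differed in how high they stood. The authors' score, ranked within each list, placed the best peak of a marked member at a median percentile of 85.2 to 91.8 for H3K27ac, against 62.4 to 73.3 for all genes with a peak. For H3K4me2 it was 79.1 to 87.9 against 73.3 to 76.1. For H3K4me3 the order was turned: 34.0 to 37.2 for the histone genes against 60.5 to 61.8. Widths of peaks went the same way. H3K4me3 peaks near members had a median width of 694 to 867 bp over the 4 lists, against 1170 to 1246 bp near all coding starts, while H3K27ac peaks had 594 to 1186 bp against 513 to 711 bp.

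H3K4me3 was low or missing at some members that carried much H3K27ac. H2AC14 and H2BC14 had H3K27ac over 3518 and 3026 bp in the Corin lists, and over at least 2395 bp in each DMSO list. Their H3K4me3 was 389 and 0 bp in Corin and 0 and 0 bp in DMSO. H4C2 had H3K27ac over 3474 and 1976 bp in Corin and 2298 and 1619 bp in DMSO, with H3K4me3 over 293, 0, 322 and 280 bp in the same order. H3C11 and H4C13 shared H3K4me3 of 0 and 343 bp in Corin and 261 and 1066 bp in DMSO, beside H3K27ac over at least 2146 bp in every list. At the other end, H2AC15 had H3K4me3 over 3500 and 3640 bp in Corin and 3557 and 3528 bp in DMSO, most of its window. No member was covered over its whole window in all lists of a mark.

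Corin and DMSO were compared by bp under peaks, and a gene was called when both Corin lists lay above, or both below, both DMSO lists. With 2 lists a group an exact two-sided permutation test cannot give a p below 0.333, so no gene was tested alone and the calls describe these lists. H3K27ac was called higher in Corin at 26 of 68 members (38.2%), against 22.2% of all protein-coding genes, and lower at 0, against 0.319%. Genes without H3K27ac in any list cannot be called, and they were 17 of 68 members (25.0%) and 53.4% of all genes. Of the genes with H3K27ac in any of the 4 lists, 26 of 51 members (51.0%) and 4439 of 9334 genes (47.6%) were called higher, so the members' share lay near that of other marked genes. H3K4me2 was called higher at 2 members, against 18.1% of all genes, and lower at 7 (10.3%), against 4.73%. H3K4me3 was called higher at 5 (7.35%), against 12.6%, and lower at 3 (4.41%), against 4.88%. Members with starts within 2 kb of each other share most of their bp: with 1 member kept of such neighbours, 17 of 45 were called higher for H3K27ac.

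The number of peaks differed between the H3K27ac lists, with 34424 and 30029 in Corin and 17599 and 19995 in DMSO. When the top 17599 peaks by score were kept in each list, 17 members were called higher for H3K27ac (25.0%, against 13.3% of all genes) and 3 lower (4.41%, against 1.54%). The shares of all genes here and below include genes without the mark, which cannot be called. Shares among marked genes were not computed for these settings. The counts depended on single libraries. Without Corin list 2, H3K27ac was higher at 45 members (66.2%, against 34.2% of all genes), H3K4me2 at 33 (48.5%, against 34.4%) and H3K4me3 at 18 (26.5%, against 24.6%). H3K4me3 was lower there at 9 (13.2%, against 10.5%). Without Corin list 1, H3K4me2 was lower at 38 (55.9%, against 17.1%) and H3K4me3 at 24 (35.3%, against 14.0%). For H3K4me2, leaving out DMSO list 1 gave 11 higher (16.2%, against 23.03%) and 15 lower (22.1%, against 19.9%), and leaving out DMSO list 2 gave 5 higher (7.35%, against 37.0%) and 13 lower (19.1%, against 8.44%). For H3K4me3, leaving out DMSO list 1 gave 10 higher (14.7%, against 18.6%) and 16 lower (23.5%, against 14.5%), and leaving out DMSO list 2 gave 12 higher (17.6%, against 24.9%) and 15 lower (22.1%, against 10.4%). H3K27ac was lower at 6, 1, 3 and 2 members without Corin list 1, Corin list 2, DMSO list 1 and DMSO list 2, against 3.28%, 1.08%, 4.28% and 2.13% of all genes.

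Over the 39 merged regions around the histone starts (188987 bp), H3K27ac peaks covered 79175 and 62716 bp in Corin and 58606 and 52478 bp in DMSO. The groups did not overlap, and the means were 70946 ± 11638 and 55542 ± 4333 bp (SD, n = 2), a ratio of 1.28. The same ratio was 1.61 over the windows of all protein-coding genes and 1.96 over the whole lists. The factor at the histone genes was the smallest of these 3, a difference that was not tested. H3K4me2 covered 92342 and 77487 bp in Corin and 87497 and 85040 bp in DMSO, and H3K4me3 48527 and 40605 bp in Corin and 44702 and 47325 bp in DMSO. For both methyl marks the 2 Corin values lay on either side of the DMSO values, with ratios of 0.984 and 0.969, against 1.07 and 1.04 over all genes.

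**Figure D4:**
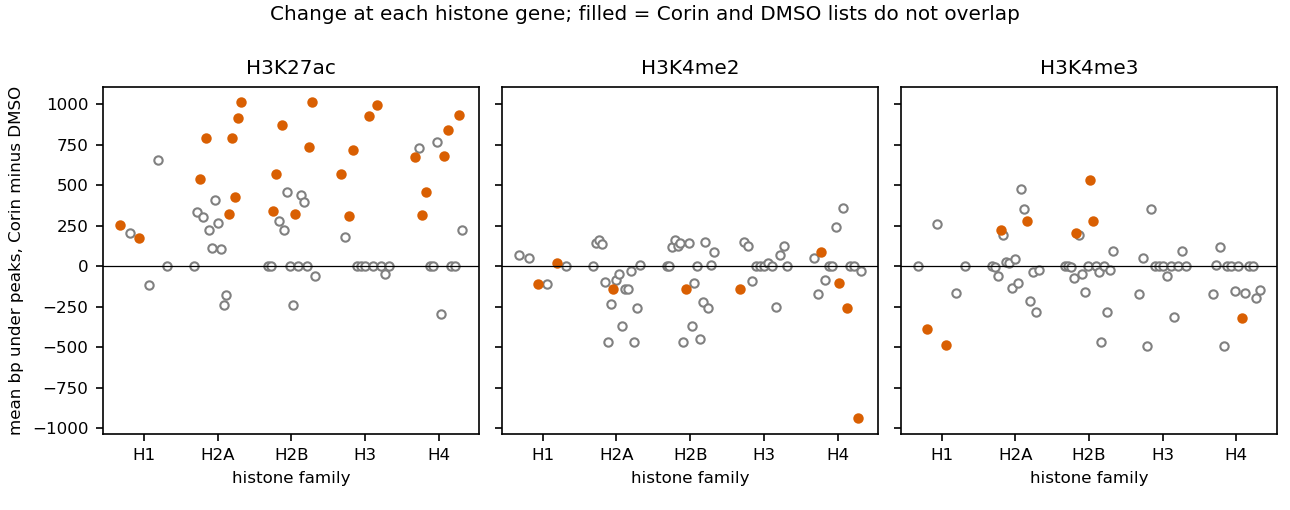
Mean bp under peaks within 2 kb of the start in Corin minus DMSO (n = 2 lists each) for each of the 68 histone genes, by family and mark; filled points are genes whose 2 Corin and 2 DMSO lists do not overlap. All 26 filled H3K27ac points lie above 0, while H3K4me2 has 2 above and 7 below and H3K4me3 has 5 above and 3 below.

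The H3K27ac calls were spread over the families of core and linker histones. Higher were 2 of 6 H1, 7 of 17 H2A, 6 of 18 H2B, 5 of 13 H3 and 6 of 14 H4 genes. The shares ran from 33.3% of H1 and H2B to 42.9% of H4, against 22.2% of all genes. Without H3K27ac in any list, and so not open to a call, were 1 H1, 1 H2A, 5 H2B, 6 H3 and 4 H4 genes. Of all genes with H3K27ac in any list 47.6% were called higher. By cluster, 15 of the 32 genes of the largest were called higher, 6 of the 16 of chr6:27805479-27895891, 3 of the 5 of chr6:27130316-27149562 and both genes of chr1:228455364-228460558. In chr1:149809879-149889965 none of 11 was. Of the genes with H3K27ac in any list, that was 15 of 23, 6 of 16, 3 of 5, 2 of 2 and 0 of 5 in the same order, against the 47.6% of such genes overall. H2BC8, which shares its interval with H2AC8, had 2176 and 1994 bp in Corin and 992 and 1159 bp in DMSO, a difference of 1010 bp. H3C4 had 3452 and 3407 bp against 2429 and 2448 bp, and the 2 lists of each group stood close together. H3C2 had 2369 and 1607 bp against 1030 and 1094 bp, which did not hold within 1 kb of the start, where the lists overlapped. At H4C8 there were 1479 and 1157 bp against 0 and 771 bp, and the lists overlapped there with equal numbers of peaks or with a score of at least 100. The mean difference was 926 bp at H3C2 and 545 bp without Corin list 1, and 932 bp at H4C8 and 547 bp without DMSO list 1.

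A few members had H3K27ac in both Corin lists and in neither DMSO list. H2AC25 and H2BC26 had 251 and 393 bp in Corin and 0 and 0 bp in DMSO, over H3K4me2 of 2762 and 2511 bp against 2946 and 2609 bp at H2AC25. Their H3K4me3 was 2265 and 2023 bp in Corin against 1886 and 1847 bp in DMSO, so this pair was called higher for both H3K27ac and H3K4me3. H1-1 had 315 and 199 bp of H3K27ac against 0 and 0 bp. The H1-1 peaks were weak: with equal numbers of peaks, or a score of at least 100, H1-1 had 0 bp in every list. H4C3 had 716 and 0 bp in Corin against 608 and 696 bp in DMSO, so Corin list 2 lacked its peak.

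The largest H3K4me2 difference was at H4C8, which had 1900 and 1203 bp in Corin against 2400 and 2571 bp in DMSO, a mean difference of -934 bp beside its larger H3K27ac and of -586 bp without Corin list 2. H4C5 had 2245 and 2204 bp against 2446 and 2524 bp, also beside more H3K27ac (3124 and 3421 bp against 2412 and 2454 bp). H3C1 had 1996 and 1782 bp against 2050 and 2012 bp, and H2AC17 3456 and 3327 bp against 3569 and 3489 bp. The H2AC17 difference of -138 bp was -73.0 bp without Corin list 2, and its lists overlapped within 5 kb (-91.5 bp) and 10 kb (-476 bp). The H3C1 difference of -142 bp became 118 bp within 5 kb and 453 bp within 10 kb of the start, and it was -35.0 bp without Corin list 2 and -249 bp without Corin list 1. The members called higher differed little: H4C12 had 1993 and 1909 bp against 1850 and 1871 bp, and H1-5 2663 and 2686 bp against 2646 and 2662 bp. The H4C12 difference of 90.5 bp was 48.5 bp without Corin list 1. The H1-5 difference of 20.5 bp was 32, 9 and 12.5 bp without Corin list 1, Corin list 2 and DMSO list 1. The H4C12 mean turned lower within 10 kb (-158 bp), though not within 5 kb, and with equal numbers of peaks or the stricter score (-50.5 bp in each). The H1-5 mean turned lower within 5 kb (-168 bp).

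H3K4me3 was called higher at H2BC21, with 1396 and 830 bp in Corin against 351 and 818 bp in DMSO. Corin list 1 was high and DMSO list 1 low there, and the mean difference of 528 bp was 246 bp without the former, 295 bp without the latter and 812 bp without Corin list 2. At H2AC25 it was higher by a mean of 278 bp, with the values given above, and by 156 bp without Corin list 1. H2AC13 had 1706 and 1606 bp against 1294 and 1574 bp, a mean difference of 222 bp that was 82.0 bp without DMSO list 1 and 362 bp without DMSO list 2. The lists of both H2BC21 and H2AC13 overlapped in windows of 1, 5 and 10 kb, with mean differences of 226, 484 and 484 bp at H2BC21 and 9.5, 288 and 482 bp at H2AC13. H3K4me3 was called lower at H1-4, with 1448 and 1249 bp against 1945 and 1718 bp, at H1-2, with 1625 and 1531 bp against 1713 and 2222 bp, and at H4C4, with 389 and 690 bp against 864 and 851 bp. H1-4 was not called within 5 or 10 kb, nor H1-2 within 1 kb. The H1-2 difference of -390 bp was -644 bp without DMSO list 1 and -135 bp without DMSO list 2, and the H4C4 difference of -318 bp was -168 bp without Corin list 1.

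The H1 genes, whose linker histones bind DNA where it enters and leaves the nucleosome, differed in how much of the marks they carried. H1-5 had H3K27ac over 4001 and 3154 bp in Corin and 3779 and 2067 bp in DMSO, so the lists overlapped. H1-2 had 2761 and 2858 bp against 2829 and 2381 bp, and H1-4 2126 and 1133 bp against 1969 and 1518 bp. H1-3 had less, 836 and 630 bp against 523 and 596 bp, and was called higher, with a mean difference of 174 bp that was 70.5 bp without Corin list 1 and 276 bp without Corin list 2. Their H3K4me2 was close between lists: 2971, 2914, 2952 and 2830 bp at H1-2, 2632, 2339, 2644 and 2546 bp at H1-4 and 2035, 1903, 2082 and 2079 bp at H1-3, with Corin before DMSO. At H1-3 both Corin lists were below both DMSO lists, though not within 1 kb of the start. That mean difference of -112 bp was -178 bp without Corin list 1 and -45.5 bp without Corin list 2. H1-1 had H3K4me2 of 556 and 419 bp against 437 and 403 bp and no H3K4me3. H3K4me3 at H1-3 was 506 and 969 bp against 304 and 653 bp, and at H1-5 1556 and 1185 bp against 1343 and 1733 bp, both with overlapping lists. H1-6 had no peak.

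Across the whole clusters (472728 bp) the H3K27ac lists covered 100452 and 77125 bp in Corin and 69739 and 59829 bp in DMSO, or 21.2% and 16.3% of the span against 14.8% and 12.7%. The mean ratio was 1.37 (log2 0.46, SD 0.31 from the spread of the lists). H3K4me2 covered 114692 and 94990 bp against 104434 and 99136 bp, and H3K4me3 51614 and 43221 bp against 47605 and 49908 bp, both overlapping. The density of marks differed between clusters. In chr6:27130316-27149562, which holds 5 genes in 19247 bp, H3K27ac covered 75.8% and 53.6% in Corin and 57.4% and 40.6% in DMSO. In chr6:27805479-27895891 it covered 45.6% and 35.4% against 34.5% and 26.7%. The largest cluster had 14.3% and 10.9% against 9.16% and 8.56%. In chr1:149809879-149889965 it was 6.79% and 5.99% against 3.16% and 5.71%, so that DMSO list 1 stood below the other 3 lists.

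Histone genes outside the rule gave a comparison. Of 11 replication-independent variants, H3K27ac was called higher at 3 (27.3%, against 22.2% of all genes). At 2 of the 11 no list had H3K27ac, and of all genes with H3K27ac in any list 47.6% were called higher. H3K4me2 was called higher at 4 (36.4%, against 18.1%) and lower at 1 (9.09%, against 4.73%), and H3K4me3 higher at 2 (18.2%, against 12.6%). For each methyl mark 1 of the 11 had no peak. Of all genes with the mark in any list, H3K4me2 was higher at 27.9% and lower at 7.28%, and H3K4me3 higher at 23.75%. H2AZ1 had H3K27ac over 1463 and 1055 bp in Corin and 0 and 932 bp in DMSO. CENPA, the histone H3 of centromeres, had H3K4me2 over 1930 and 2382 bp against 1250 and 1461 bp. H2AJ had H3K4me3 over 1476 and 1618 bp against 1283 and 1425 bp. MACROH2A1 had H3K27ac over its whole 4001 bp window in all 4 lists. None of 6 germline variants had a peak of any mark. Of 9 histone pseudogenes inside the clusters, which share windows with members, 4 were called higher for H3K27ac (44.4%, against 22.2% of all genes). No list had H3K27ac at 2 of the 9, and the share called among all genes with H3K27ac was 47.6%.

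Among 17 genes that regulate histone genes or process their messages, H3K27ac was called higher at 5 (29.4%, against 22.2% of all genes) and lower at 0 (against 0.319%). H3K4me2 was called higher at 4 (23.5%, against 18.1%) and lower at 1 (5.88%, against 4.73%), and H3K4me3 higher at 2 (11.8%, against 12.6%) and lower at 1 (5.88%, against 4.88%). All 17 had H3K27ac in at least 1 list, and of all genes with H3K27ac in any list 47.6% were called higher. SLBP, which binds the stem-loop, had H3K27ac over 3071 and 3001 bp in Corin against 1897 and 2270 bp in DMSO. POU2F1, which binds the octamer, had 1919 and 1941 bp against 988 and 459 bp, and its H3K4me2 was 1678 and 1495 bp against 2221 and 2060 bp. CRAMP1 had H3K4me2 over 3663 and 4001 bp against 3454 and 3586 bp. CCNE1, which encodes cyclin E, had H3K4me3 over 1754 and 1833 bp against 1202 and 1693 bp. NPAT had H3K27ac over 1709 and 2601 bp against 1200 and 2515 bp, HINFP, an activator of H4 genes, 713 and 202 bp against 0 and 361 bp, and CASP8AP2 1825 and 992 bp against 1577 and 1350 bp, all with overlapping lists.

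Markers of a myeloid line were read as a check. Within 2 kb of the start, SPI1 and 6 others of 8 myeloid genes had H3K27ac in all 4 lists, against 27.0% of all genes. H3K4me3 was there in all 4 lists at 7, against 48.8% of all genes, and MPO had none in any list. Over the start base, the reading first planned, H3K27ac lay in all 4 lists at 1 of the 8 (SPI1) and H3K4me3 at 4. Of 7 markers of other cell types none had H3K4me3 in any list, and CD79A was the only 1 with H3K27ac, over 716 and 792 bp in Corin and 226 and 0 bp in DMSO. CD79A also had H3K4me2 in all 4 lists. Peak numbers were 30896 to 41152 for H3K4me2 and 11104 to 11883 for H3K4me3. The read depth behind the lists is not given, so neither a counting interval nor a detection limit could be computed, and a gene without a peak is not shown to lack the mark.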

How the data were processed

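Peak lists of 12 CUT&RUN libraries were used. Per the submitters' processing notes, reads were handled with Trim Galore, Bowtie2, Picard and MACS2 on hg38, without versions. The authors called peaks once per library, and none of 292523 peaks passed the end of an hg38 chromosome. The score deposited by the authors, a whole number of at least 50 whose definition is not given in the sources used here, served to rank peaks within a list and, in the alternative with a score of at least 100, as the same minimum in all lists. Covered bp were computed in Python 3.11.15 (numpy 2.4.6, pandas 2.3.3), after merging overlaps, within 2 kb of the start of the Ensembl canonical transcript of GENCODE release 44. The code was checked on simulated lists. Coordinates count from 1. A wider list covers more bp, so list size enters every value. Alternatives were other windows, equal numbers of peaks, a score of at least 100, the gene's 5′ end as start, subsets of members, each list left out and lists paired by number. Values are given for every H1 gene and, per mark, for up to 4 members in each direction with the largest difference among those called, taking 1 of neighbours within 2 kb. Members and gene lists were chosen with earlier results of these data known.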

Additional observations from a re-analysis of the deposited data

How the results depend on the processing

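The H3K27ac ratio stayed above 1 under every alternative run (log2 0.17 to 0.66 around the starts and 0.25 to 0.72 across the clusters), with 0.66 at a score of at least 100. Without single lists it ran from 0.17 to 0.51 around the starts and from 0.25 to 0.63 across the clusters. The ratios of H3K4me2 (-0.15 to 0.10 around the starts, -0.10 to 0.17 across the clusters) and H3K4me3 (-0.18 to 0.08, -0.17 to 0.08) took both signs without single lists. Equal numbers of peaks gave 17 H3K27ac members higher and 3 lower, and 1 H3K4me2 member higher (against 13.3%, 1.54% and 15.4% of all genes). With 1 member kept of neighbours, 17 were higher for H3K27ac and 3 for H3K4me3. H3K4me2 was higher at 4 members within 5 kb, 5 within 10 kb, 4 from the gene's 5′ end (against 23.8%, 28.2% and 17.5% of all genes) and 1 without the 8 members with an identical coding copy. H3K4me3 was lower at 7 members within 1 kb, 6 within 5 kb, 5 within 10 kb and 5 at the stricter score (against 4.96%, 4.88%, 4.77% and 4.82% of all genes). Leaving out each list in turn gave 27 to 45 members higher (against 26.7% to 34.2% of all genes) and 1 to 6 lower (1.08% to 4.28%) for H3K27ac, 2 to 33 higher (23.03% to 37.0%) and 8 to 38 lower (8.27% to 19.9%) for H3K4me2, and 7 to 18 higher (18.6% to 24.9%) and 9 to 24 lower (10.4% to 14.5%) for H3K4me3. With fewer lists fewer orders must hold, so these counts can only grow. The mean differences that changed sign were H4C12 (-158 bp within 10 kb, -50.5 bp with equal numbers of peaks and -50.5 bp at the stricter score), H1-5 (-168 bp within 5 kb, -142 bp within 10 kb) and H3C1 (118 bp within 5 kb, 453 bp within 10 kb), all for H3K4me2. The cause was not tested.

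The labels number the lists 1 and 2 without saying what a number shares. Same-numbered lists deviated together, with correlations of 0.29, 0.28 and 0.22 over the genes for H3K27ac, H3K4me2 and H3K4me3. With the replicate block (lists paired by number and both pairs moving the same way), 37 members were higher and 0 lower for H3K27ac, 11 higher and 14 lower for H3K4me2, and 6 higher and 14 lower for H3K4me3. Of all 20033 genes, H3K27ac was higher at 5618 and lower at 173, H3K4me2 higher at 4945 and lower at 1676, and H3K4me3 higher at 3697 and lower at 1739.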
